A study of Mus musculus with 8 samples.

Results

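Ribosome footprints of the enzymes that oxidise and reduce alcohols, aldehydes, ketones and steroids were examined in mouse liver. The genes were chosen by symbol alone: those starting with Aldh, Akr, Dhrs, Hsd, Rdh, Fmo, Cbr, Aox or Mao, or with Adh followed by a digit. The rule found 56 of the 7500 genes of the table, 0.747% of its lines. Of these, 55 belong to the named enzyme families, and whether each product is an active enzyme was not tested. The remaining gene, Fmod, encodes fibromodulin, a proteoglycan of the extracellular matrix that shares only its first letters with the flavin monooxygenases, and it is kept in the counts below as the rule demands.

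The livers came from 4 male wild-type mice of the inbred strain FVB/N, and each mouse gave 2 libraries. From weaning, for 6 weeks, 2 mice ate a selenium-deficient diet with 0 ppm selenium added (0 Se) and 2 ate that diet with 0.1 ppm selenium added as sodium selenite (0.1 Se). Ribosome profiling sequences the mRNA fragments of about 30 bases that a ribosome shields from RNase, so that the number of fragments on an mRNA follows how many ribosomes were translating it. The levels used here are 1 value per gene, the authors' average log2 CPM, the log2 of the count per 1000000 footprints. The deposited column names no sample, and the average was taken to be over all libraries of both diets. No separate value per mouse or diet was used, so no diet was compared, no replicate error can be given, and whether neighbours in an order of levels differ beyond their spread could not be tested. The number of reads behind a level is unknown. The tissue was whole liver, where fewer cells of a type and less RNA per cell cannot be told apart. The gene of highest level in the table was Alb, the albumin of hepatocytes, with a log2 CPM of 16.48 and 9.14% of all footprints counted.

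Alcohol dehydrogenases turn alcohols such as ethanol and retinol into aldehydes, and aldehyde dehydrogenases carry the aldehydes on to acids. Aldo-keto reductases, carbonyl reductases and many short-chain dehydrogenases, which bear the names Dhrs, Hsd and Rdh, work on ketones, steroids and retinoids, often with NADPH. Flavin monooxygenases, the molybdenum-dependent aldehyde oxidases and monoamine oxidases add further routes by which liver clears drugs, amines and reactive aldehydes. Hepatocytes hold large amounts of many of these enzymes, and several of the families expanded in rodents by tandem duplication.

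Because of these duplications, the sequences themselves bear on the measurement: a footprint could be counted only where it aligned to 1 mRNA, allowing 2 mismatches. The first 30 counted bases, codons 16 to 25 of the coding sequence, are shown for the duplicated genes, since 30 bases is about the length of 1 footprint. Coordinates are those of mm9 (NCBIM37), on the strand in brackets, and capitals mark the bases that differ from the first gene of each set, the one with the densest footprints. All these windows lie in the coding part of exon 1, apart from the Aldh1a windows, which run from exon 1 into exon 2. In the Akr1c run on chromosome 13, the windows of Akr1c6 (chr13:4433682-4433711, +), Akr1c20 (chr13:4522486-4522515, -), Akr1c21 (chr13:4573440-4573469, +), Akr1c12 (chr13:4278528-4278557, -), Akr1c13 (chr13:4190518-4190547, +) and Akr1c19 (chr13:4233062-4233091, +) read as follows.
Akr1c6: atccctatactggggtttggtacctatgca
Akr1c20: atccctatactCgggtttggtacctCtgca
Akr1c21: atTccAGtGctgggTtttggtacTGCtCTT
Akr1c12: atTcctGCCctgggCtttggCacctatAAa
Akr1c13: atTcctGCCctgggCtttggCacctatAAa
Akr1c19: atccctGCGctgggCtttggCacctaCAAa
The window of Akr1c20 differed from that of Akr1c6 at 2 bases, which the alignment tolerated, and those of Akr1c12 and Akr1c13 were identical. The window of Akr1c21 differed from that of Akr1c6 at 11 bases, and it had no match within 2 mismatches in any other annotated coding sequence.

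The chromosome 10 run holds retinol dehydrogenases, with windows in Rdh7 (chr10:127325595-127325624, -), Rdh16 (chr10:127238299-127238328, +) and Rdh9 (chr10:127213586-127213615, +).
Rdh7: cgcttcttcagggagaggcaggtggtgagc
Rdh16: cgcttcttcagggTgaggcaggtggtgagc
Rdh9: Tgcttcttcagggagaggcaggtggtgagc
Rdh16 and Rdh9 each differed from Rdh7 at 1 base, and the Rdh7 window was identical to one in another gene not printed here. In the Hsd3b run on chromosome 3 the windows lie in Hsd3b5 (chr3:98434047-98434076, -), Hsd3b2 (chr3:98520409-98520438, -) and Hsd3b3 (chr3:98557304-98557333, -).
Hsd3b5: ggccagaggattgtccgaatgttggtgcag
Hsd3b2: ggGcagaggatCAtccAGTtgttggtgcaA
Hsd3b3: ggccagaggatCAtccAGTtgttggtgcag
Hsd3b2 and Hsd3b3 differed from each other at 2 bases and from Hsd3b5 at 7 and 5 bases. The Hsd3b5 window was nevertheless identical to one in another annotated gene not printed here, so a footprint there matched more than 1 gene. The pair on chromosome 19 comprises Aldh1a1 (chr19:20676547-20676567 and chr19:20685403-20685411, +) and Aldh1a7 (chr19:20801937-20801957 and chr19:20801544-20801552, -).
Aldh1a1: ttgaagattcaacataccaagatcttcata
Aldh1a7: ttgaagattcaacataccaagatcttTata
These windows differed at 1 base, so a footprint from either gene at this place matched both within the mismatches allowed.

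Together the 56 genes held 2.29% of the footprints summed over the table, against their 0.747% share of its lines. The median log2 CPM was 6.87 among them and 3.95 over all 7500 genes. Levels of different genes are compared below as footprint density, the CPM per kilobase of counted coding length. The median density was 107 CPM per kilobase for the dehydrogenases and their relatives and 11.3 for the table, with quartiles of 24.4 and 292 against 3.80 and 37.5. Thus 47 of the 56 lay above the table's median density, and 25 (44.6%) were among the 750 densest genes, which are 10% of the lines. These comparisons describe 1 pooled value per gene, with no test. Their counted coding sequences were shorter than those of the table, with a median of 961.5 bases against 1344, and their GC content was close to that of the table, with a median of 51.0% against 52.6%.

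**Figure D1:**
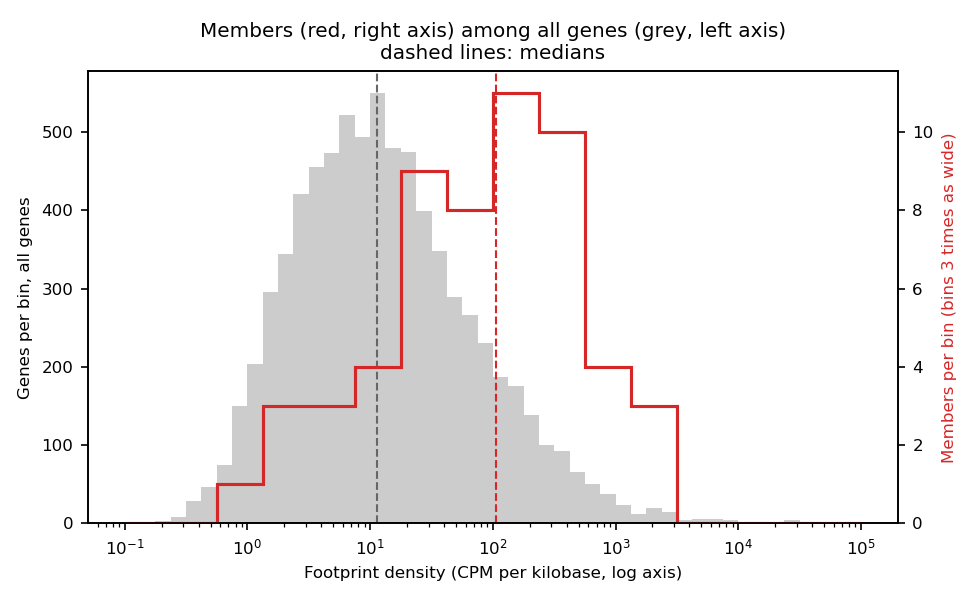
Footprint density in CPM per kilobase on a log axis, with all 7500 genes as the grey histogram (left axis) and the 56 chosen genes as the red outline (right axis, wider bins). Dashed lines mark the medians, 11.3 for all genes and 107 for the chosen genes, and the red outline lies mostly to the right of the grey peak.

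The range within the families was wide. By counted length the densest gene, Adh1, stood 1435 times above the least dense, Aldh3b1. By the windows that match no other gene, described below, Akr1c6 was the densest at 5217 CPM per kilobase, Adh1 ranked 5 at 1906, and Aldh18a1 was the lowest at 1.42. By counted length, densities above 1000 CPM per kilobase were found for 5 genes, between 100 and 1000 for 23, between 10 and 100 for 20, and below 10 for 8. By unmatched windows Hsd3b5 (1465) and Rdh16 (1065) also lay above 1000. By CPM, 5 genes held 48.6% of the footprints of the whole group and 10 genes held 71.9%. The Aldh genes, 13 in number, took the largest share with 41.1%, followed by the 9 Akr genes with 13.6%, the 12 Hsd genes with 13.4% and the single Adh gene with 10.4%. The 2 Aox genes held 7.69%, the 7 Rdh genes 5.80%, and the 4 genes starting with Fmo 5.44%. The 2 Cbr genes contributed 0.482% and Maoa 0.0657%. The mm9 annotation names 105 protein-coding genes that meet the symbol rule, and 50 of these were not analysed here, so that the shares refer to the analysed genes and not to whole families.

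**Figure D2:**
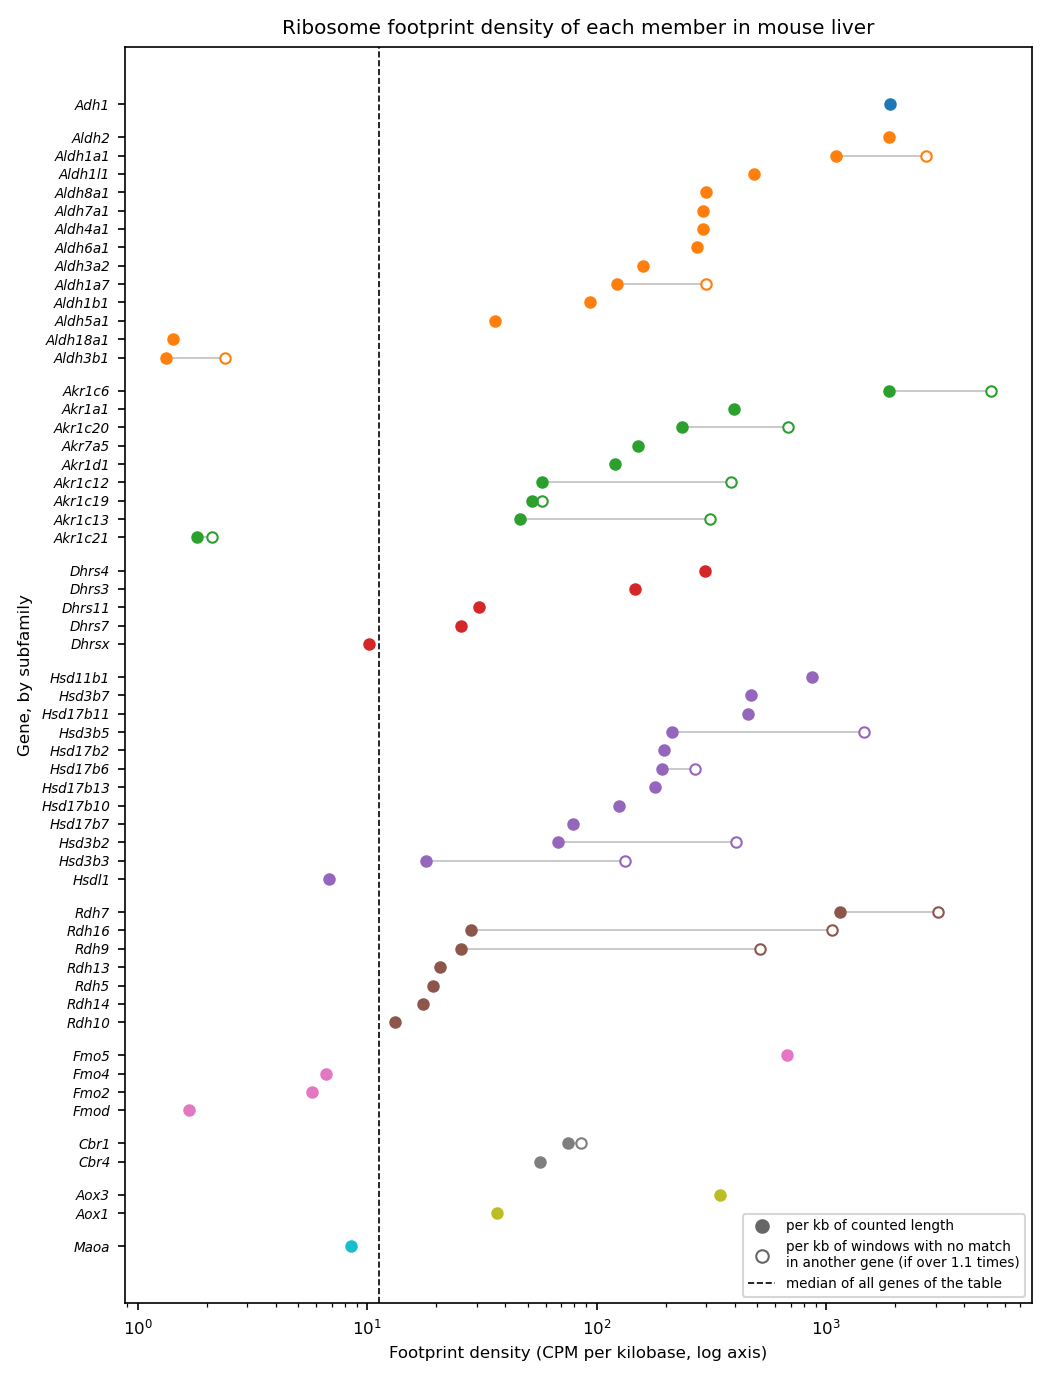
Footprint density of each of the 56 genes (CPM per kilobase, log axis), grouped by subfamily and ordered within it. Filled points are per kilobase of counted length, and open points, drawn where they are over 1.1 times higher, are per kilobase of windows with no match in another gene. The filled points of Adh1, Aldh2, Akr1c6, Rdh7 and Aldh1a1 lie above 1000, as do the open points of Hsd3b5 and Rdh16. The dashed line is the median of all genes, 11.3.

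Ethanol and acetaldehyde are oxidised in sequence by Adh1, the cytosolic class I alcohol dehydrogenase, and Aldh2, the mitochondrial enzyme. Adh1 (chromosome 3, 137923955-137953662, 9 exons) had a log2 CPM of 10.99 and a density of 1906 CPM per kilobase, and Aldh2 (chromosome 5, 122016036-122043833, 13 exons) a log2 CPM of 11.46 and a density of 1883. Their densities thus differed by a factor of 1.01, while Aldh2, with the longer coding sequence, had the highest CPM of the group and by itself 14.4% of its footprints. Aldh1b1, a second mitochondrial acetaldehyde dehydrogenase that is encoded by 1 coding exon, reached 93.5 CPM per kilobase, 20.1 times below Aldh2. Among the enzymes of other aliphatic and lipid aldehydes, Aldh7a1, which also acts in lysine breakdown, had 290 CPM per kilobase. Aldh3a2, the microsomal fatty aldehyde dehydrogenase, had 158. Aldh3b1, which prefers medium- and long-chain aldehydes, had 1.33 by counted length and 2.39 by unmatched windows. The other known routes of ethanol oxidation were represented by Cyp2e1, the inducible microsomal cytochrome, with 9165 CPM per kilobase and by catalase (Cat) with 3297, and all 3 genes of that list were among the 750 densest.

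Retinol is stored and released by liver, and its oxidation to retinal and then to retinoic acid draws on several of the families. For the second step, Aldh1a1, the main cytosolic retinal dehydrogenase of liver, had 1108 CPM per kilobase. Aldh8a1 had 299.9, and Aldh1a7, close to Aldh1a1 in sequence, had 122. Whether Aldh8a1 and Aldh1a7 oxidise retinal in liver was not tested. By unmatched windows Aldh1a1 had 2735 and Aldh1a7 299.5, level with Aldh8a1. For the first step, Rdh7 was the densest short-chain enzyme with 1148 CPM per kilobase. For the reverse of this step, Dhrs4, a peroxisomal reductase of retinal and other carbonyls, had 295. Dhrs3, a retinal reductase of the endoplasmic reticulum, had 147. The further Rdh genes were lower by counted length. Rdh16 and Rdh9, the chromosome 10 neighbours of Rdh7, had 28.3 and 25.6 CPM per kilobase, but 97.3% and 95.0% of their 30-base windows matched another gene, and per kilobase of the unmatched windows they had 1065 and 516 against 3082 for Rdh7. Rdh13, a mitochondrial enzyme, had 20.8, Rdh5, best known as the 11-cis-retinol dehydrogenase of the eye, 19.3, and Rdh14 17.4. Rdh10, the enzyme that makes retinal for embryonic retinoic acid signalling, was the lowest of the Rdh genes at 13.3. By counted length the median over the 9 short-chain retinoid enzymes was 25.6 CPM per kilobase. On that scale 3 of them, Rdh7, Dhrs4 and Dhrs3, were among the 750 densest genes. By unmatched windows Rdh16 and Rdh9 lay above Dhrs4 (299) and Dhrs3 (147), so the median and the count hold for counted length only. Of 16 listed symbols of retinoid handling outside these families, 7 were analysed, with a median of 13.6 CPM per kilobase. The 2 densest were Ttr (28165) and Rbp4 (7110), which encode the plasma carriers of thyroxine and retinol and were the only 2 of the 7 among the 750 densest.

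Steroid and bile acid metabolism was represented by 11 genes, with 19.9% of the group's footprints and a median of 197 CPM per kilobase by counted length. The median holds for that scale only, since several of these genes were higher by unmatched windows, as given below. Akr1c6, a hydroxysteroid dehydrogenase of mouse liver, led them with 1873 CPM per kilobase and a log2 CPM of 10.74. Hsd11b1, which regenerates active glucocorticoid from its inert ketone, followed with 868. Hsd3b7, an enzyme of bile acid synthesis that acts just after the ring hydroxylation of cholesterol, had 472 CPM per kilobase, while Akr1d1, the 5-beta-reductase of the same pathway, had 120. Hsd3b5, a 3-ketosteroid reductase of male mouse liver, had 213 CPM per kilobase by counted length and 1465 by unmatched windows, which places it below Hsd3b7 on the first scale and above it on the second. Hsd17b2, which inactivates oestradiol and testosterone, had 197 on both scales. Hsd17b6, a neighbour of the Rdh genes, had 193 by counted length and 269 by unmatched windows, so the order of these 2 genes reversed. By counted length Akr1c20 was at 236, Hsd3b2 at 67.6, Hsd3b3 at 18.1 and Akr1c21 at 1.80 CPM per kilobase, and by unmatched windows at 679, 404, 132 and 2.11 in the same order. For bile acid synthesis outside these families, 10 of 14 listed genes were analysed. Their median was 310 CPM per kilobase and 9 of the 10 were among the 750 densest, led by Scp2 (5228), whose long form is the last thiolase of side-chain shortening, and Acaa1b (475). For steroid reduction and conjugation 5 of 9 listed genes were analysed, with a median of 66.4 and with Ugt2b1 (690) and Ugt2b5 (347), both glucuronosyltransferases, as the densest.

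Among the enzymes of amino acid and folate metabolism taken up here, Aldh1l1, Aldh4a1 and Aldh6a1 were the densest. Aldh18a1 was near the bottom of the whole group. Aldh7a1, given above with the lipid aldehydes, lay level with Aldh4a1 at 290 CPM per kilobase. Aldh1l1, the cytosolic 10-formyltetrahydrofolate dehydrogenase, had a density of 484 CPM per kilobase and, by its length, 6.54% of the group's footprints. Aldh4a1, which completes proline breakdown, had 289.8 CPM per kilobase, and Aldh6a1, of valine and thymine breakdown, had 274. Hsd17b10, which acts on isoleucine and is also a subunit of mitochondrial RNase P, had 125. Below these, Aldh5a1, of GABA breakdown, had 36.1, and Maoa, the outer mitochondrial membrane oxidase of serotonin and other amines, had 8.46. Aldh18a1, which works in the opposite direction to Aldh4a1 on the route from glutamate to proline, had 1.42 CPM per kilobase. By density Aldh4a1 thus stood 204 times above Aldh18a1. The log2 CPM of Aldh18a1 was 1.73, below the lower quartile of the table, 2.44, and the reads behind it are unknown. Of the 10 listed one-carbon folate enzymes reported here, 4 were analysed. They had a median of 24.4 CPM per kilobase and were led by Ftcd (310), which links histidine breakdown to folate, and Fpgs (42.9), which adds glutamate residues to folates.

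Enzymes of lipid droplets and sterols were of middle to high density. Hsd17b11 and Hsd17b13, neighbouring genes on chromosome 5 whose proteins sit on lipid droplets, had 459 and 180 CPM per kilobase, a ratio of 2.54. Hsd17b7, the 3-ketosteroid reductase of cholesterol synthesis, had 78.4. Of the general carbonyl reductases, Akr1a1, the aldehyde reductase that mice also use to make ascorbate, had 398 CPM per kilobase and Akr7a5 had 151. Cbr1 had 74.6 and Cbr4, of mitochondrial fatty acid synthesis, 56.4, and neither was among the 750 densest genes. The Akr1c genes counted here, Akr1c12 at 57.6, Akr1c19 at 52.2 and Akr1c13 at 46.1, were close to each other by counted length. Per kilobase of windows that match no other gene, a scale explained below, Akr1c12 had 385, Akr1c13 311 and Akr1c19 57.6. These values rest on 132, 131 and 801 such windows in the same order. Of the short-chain family members of less settled role, Dhrs11 (30.5) and Dhrs7 (25.6) lay above the table's median density of 11.3, and Dhrsx (10.2) and Hsdl1 (6.78) below it.

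The drug-oxidising families each had 1 dominant gene. Fmo5 had 677 CPM per kilobase and a log2 CPM of 10.03, which was 103 times the density of Fmo4 (6.60) and 118 times that of Fmo2 (5.72), a form best known from lung. Fmod, the proteoglycan caught by the symbol rule, was at 1.67. Aox3, an aldehyde oxidase of mouse liver with 35 coding exons, had a log2 CPM of 10.41 and 345 CPM per kilobase, 9.37 times the density of its neighbour Aox1 (36.8). Aldehyde oxidases need the molybdenum cofactor, and of 11 listed symbols for cofactor synthesis and the other molybdenum enzymes 7 were analysed, with a median of 64.9 CPM per kilobase. The densest of these, Mosc1, a mitochondrial amidoxime reductase, had 323 CPM per kilobase, and Mocs2, which makes the precursor molybdopterin, had 130. The log2 CPM of Mocs2 was only 4.75 against 8.29 for Mosc1, so its density rests on a short counted length.

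How far the densities depend on shared sequence was examined for the 55 genes matched to the mm9 annotation. The listed genes outside these families were not searched in this way, so their densities and ranks are by counted length only. Every 30-base window of the counted sequence was searched for in the coding sequences of all other genes. In 38 of the 55 genes under 3% of the windows had a match with up to 2 mismatches, and in 23 of these none had. In 16 genes over 10% of the windows did, and in 12 over 50%. The highest share was that of Rdh16 (97.3%), then Rdh9 (95.0%), Hsd3b3 (86.4%), Hsd3b5 (85.5%), Akr1c13 (85.2%), Akr1c12 (85.1%) and Hsd3b2 (83.3%). Akr1c20 (65.3%), Akr1c6 (64.1%), Rdh7 (62.8%), Aldh1a1 (59.5%) and Aldh1a7 (59.2%) completed the 12. Exact matches exceeded 50% of the windows in 5 genes, Rdh9 (67.3%), Rdh16 (64.5%), Hsd3b2 (52.2%), Akr1c12 (51.1%) and Akr1c13 (51.1%).

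**Figure D3:**
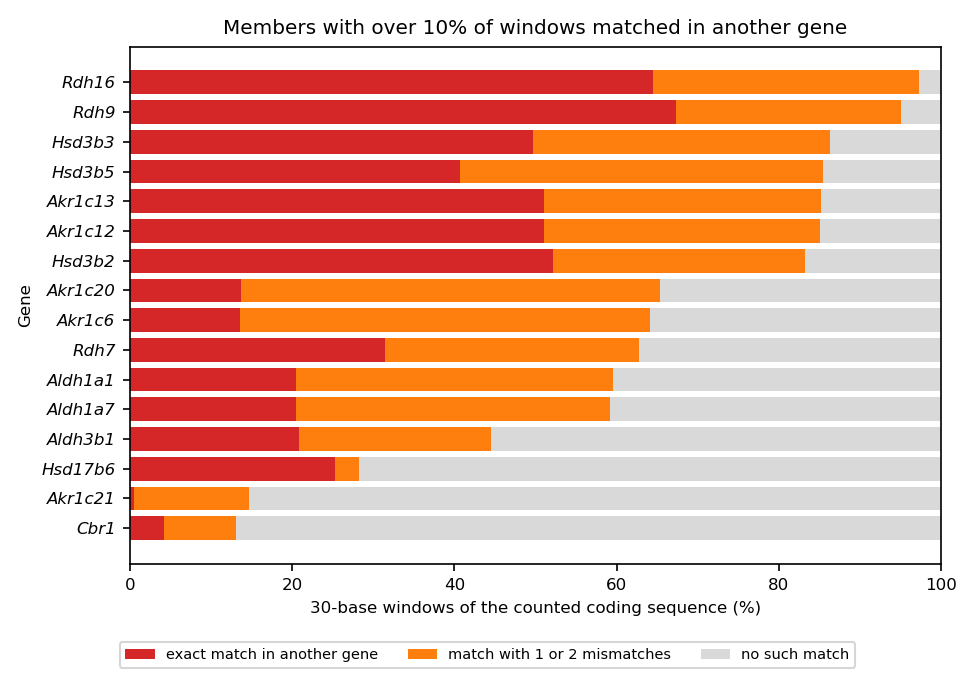
Share of the 30-base windows of the counted coding sequence (%) that match another gene exactly (red), with 1 or 2 mismatches (orange) or not at all within these limits (grey), for the 16 genes with over 10% matched. Rdh16 and Rdh9 are matched almost throughout, at 97.3% and 95.0%.

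Many of the matches fell between neighbouring duplicates. Windows of Rdh16 matched Rdh9 in 93.4% of cases, and the full coding sequences of the pair were 96.3% identical. Akr1c12 and Akr1c13 were 96.2% identical, Hsd3b2 and Hsd3b3 95.1%, and Aldh1a1 and Aldh1a7 91.6%. These were the 4 pairs above 90% among 215 compared within families. Some partners were genes not analysed here. Hsd3b5 matched Hsd3b4 in 80.3% of its windows, Hsd3b3 matched Hsd3b6 in 73.9%, and Aldh3b1 matched Aldh3b2 in 37.6%. In Hsd17b6, 25.3% of the windows had an exact match in another gene while 28.2% had one with up to 2 mismatches, so that almost all of its matched windows were identical to their counterparts.

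If every footprint from a matched window was discarded, the level refers only to the windows without a match, and the density per kilobase of those windows is the comparable quantity. On that scale Akr1c6 went from 1873 to 5217 CPM per kilobase, Rdh7 from 1148 to 3082 and Aldh1a1 from 1108 to 2735, which placed these 3 genes ahead of Aldh2 (1926) and Adh1 (1906). Hsd3b5 moved from 213 to 1465, above Hsd3b7 (472), to which it had stood at a ratio of 0.451. The value of Hsd3b5 rests on 150 unmatched windows and that of Hsd3b7 on 1021. For Rdh16 and Rdh9 the values were 1065 and 516 in place of 28.3 and 25.6, but these rest on 23 and 43 unmatched windows. In pairs of near-equal matched share the scale cancels by construction, so the ratio of Aldh1a1 to Aldh1a7, 9.07 by counted length, and that of Akr1c6 to Akr1c20, 7.94, carry over to the second scale without being tested by it. How many footprints were in fact discarded was not tested.

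In 3 runs of 3 or more neighbouring genes, with gaps of at most 500 kb, lay 13 of the genes, and 12 of these 13 had over 10% of their windows matched elsewhere. Along the Akr1c run (chromosome 13, 4190430-4585787, 395 kb) the order was Akr1c13, Akr1c19, Akr1c12, Akr1c6, Akr1c20 and Akr1c21. The densest gene, Akr1c6, and the least dense, Akr1c21, differed 1039-fold by counted length and 2472-fold by unmatched windows. Akr1c21 had 14.6% of windows matched, so that its density was 1.80 CPM per kilobase by counted length and 2.11 by unmatched windows, low on both scales. Akr1c12 was close to Akr1c19 by counted length, at 57.6 and 52.2 CPM per kilobase, and 6.68 times denser by unmatched windows. That ratio rests on 132 unmatched windows of Akr1c12 and 801 of Akr1c19. In the Rdh run (chromosome 10, 127196843-127437734, 241 kb), Rdh7 stood 40.5 times above Rdh16 by counted length and 2.89 times by unmatched windows. Hsd17b6, in the same run, was 5.95 times below Rdh7 by counted length and 11.5 times below by unmatched windows. In the Hsd3b run (chromosome 3, 98422559-98567051, 144 kb) the order Hsd3b5, Hsd3b2, Hsd3b3 held on both scales, with Hsd3b5 over Hsd3b3 at 11.8 and 11.1.

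**Figure D4:**
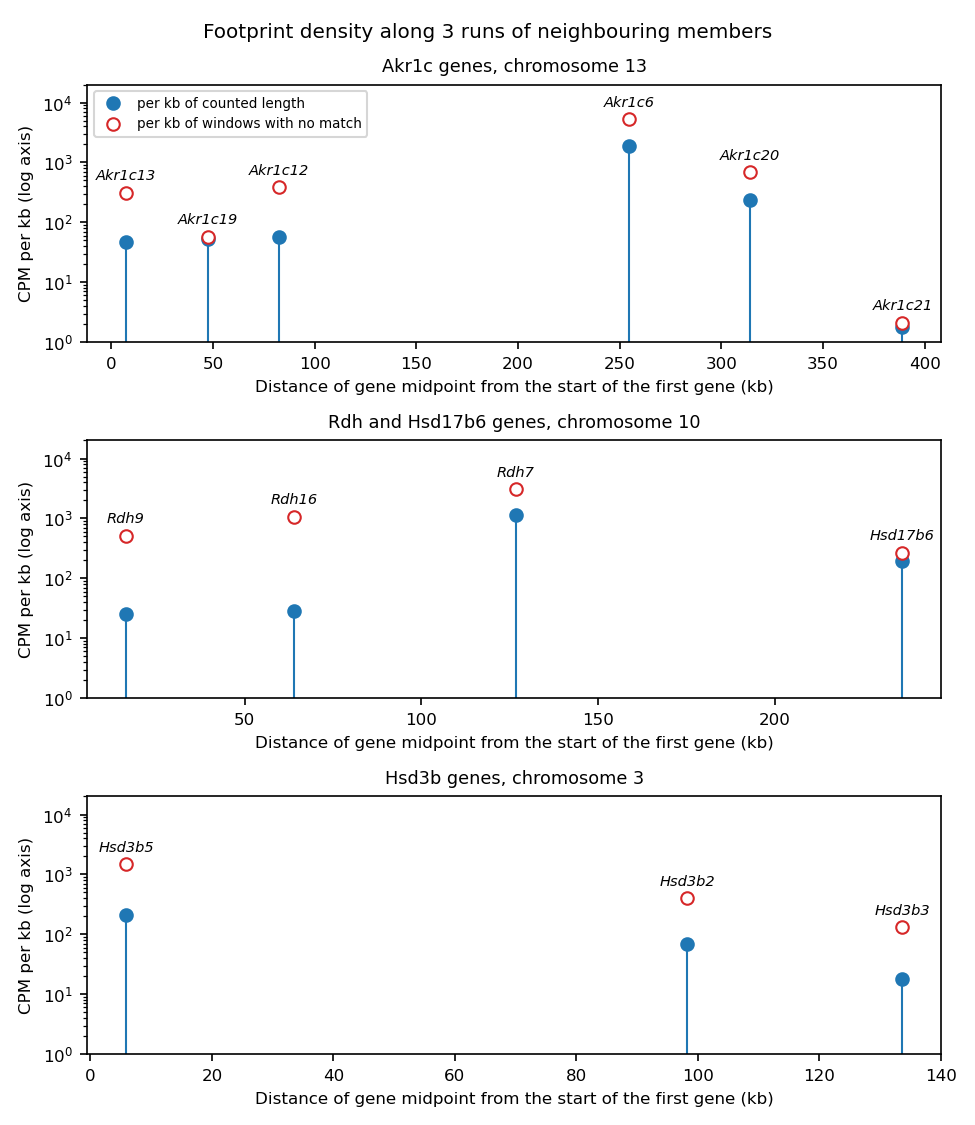
Footprint density (CPM per kilobase, log axis) against the distance of each gene's midpoint from the start of the run (kb), for the runs on chromosomes 13, 10 and 3. Filled points are per kilobase of counted length and open points per kilobase of windows with no match in another gene. Akr1c6 lies 1039-fold above Akr1c21 by counted length, and the gap from Rdh7 to Rdh16 narrows from 40.5 to 2.89 times.

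Of the pairs of nearest analysed genes of one family that hardly shared sequence, the Aox and Hsd17b pairs were unequal and the Fmo pair was not far apart. Aox3 and Aox1, which adjoin on chromosome 1, had 0.919% and 1.18% of windows matched and differed 9.37-fold by counted length and 9.34-fold by unmatched windows. Hsd17b11 and Hsd17b13 had 0.495% and 0.484% matched and differed 2.54-fold on both scales. Fmo4 and Fmo2, also near each other on chromosome 1, had 0.125% and 0.395% matched. Their densities of 6.60 and 5.72 CPM per kilobase were close to each other. The span from Fmo4 to Fmo2 holds another annotated gene under the symbol rule, which was not analysed.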

How the data were processed

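Footprints of about 30 bases from RNase-treated liver lysates were sequenced by the authors, who trimmed adapters with the FastX toolkit, removed rRNA with Bowtie and kept unique alignments (up to 2 mismatches) to the longest RefSeq isoform of each mRNA (mm9) without the first 15 and last 3 codons. The authors used edgeR on genes above 1 CPM in 3 or more samples; the sources used here name no version of these tools. Each deposited log2 CPM is 1 value per gene with no sample named. It was taken to be the authors' average over the libraries of both diets. The 4 deposited columns with the authors' own diet comparison, 0.1 Se against 0 Se (log2 fold change, fold change, p-value and FDR), were not used; their p-values stop short of 1, so the table may hold only part of the tested genes. Depth per library is unknown, and no interval or test can be given. The deposited length was 60 bases shorter than an annotated coding sequence in 97.7% of 7260 matched genes and in all 55 matched members, and was taken as the counted length. CPM was computed as 2 to the power of log2 CPM, and density as CPM per kilobase of that length.

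Coding sequences and positions came from the GENCODE M1 annotation of NCBIM37 (mm9), which represents C57BL/6J and not FVB/N. Of the members, 54 matched by symbol and Akr1a1 by its older symbol Akr1a4; Dhrsx was not matched. Windows of 30 bases were searched on the same strand with Python 3.11.15, NumPy 2.4.6 and numba 0.67.0, tested on 200 simulated sequences; identity came from Biopython 1.88 global alignments. Members and lists were chosen with earlier results of these data known. Named were, per subfamily, the 3 genes of highest and the 1 of lowest density, members among the 750 genes of highest CPM, members with over 50% of windows matched within 2 mismatches, members in runs of 3 or more, and the 2 densest of each partner list. This gave 47 members; Akr1d1, Aldh18a1, Aldh5a1, Dhrs7, Hsd17b10, Hsd17b7, Rdh13, Rdh14 and Rdh5 were added after their values were seen, to account for all 56. Some partner lists hold a gene under both an older and a newer symbol. 1 gene of a partner list is not reported here.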

Additional observations from a re-analysis of the deposited data

How the results depend on the processing

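The share of the table's footprints held by the chosen genes was 2.29%. It was 2.30% with the smallest CPM of the table subtracted, 2.31% with genes of log2 CPM of at least 3, 1.96% of all footprints counted, those outside the table included, and 1.66% for the 41 members with under 10% of windows shared exactly. The median log2 CPM of 6.87 became 7.18 with the filter at 3, which kept 51 members and left a median of 4.84 over all genes, and 6.96 without Fmod. The median density of 107 CPM per kilobase became 125 with that filter (22.7 over all genes) and 112 with the length less 18 codons. Alternatives chosen after seeing the data gave 101 with the length plus 60 bases and 181 per kilobase of windows without a match elsewhere. The members among the 10% of genes highest by CPM numbered 27, and 25 when ranked by CPM per kilobase. The largest share of 1 subfamily was 41.1% by CPM (Aldh), 32.0% by CPM per kilobase (Aldh) and, chosen after seeing the data, 26.9% per kilobase of unmatched windows (Akr). A diet comparison with each mouse left out in turn was not run, since no value per library was used. No paired analysis was possible because each level is 1 average with no value per mouse, and mouse numbers differ between the diets. Density per unmatched window assumes footprints of exactly 30 bases and a reference set equal to the authors'.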
